A study of Mus musculus with 12 samples.

Results

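Type I interferon response genes are the genes that cells switch on when interferon alpha or beta binds its receptor, together with the receptor, the factors that carry its signal and the sensors of foreign nucleic acid that start it. A list of 48 such mouse genes was looked up by symbol in a gene count table of 55471 genes. All 48 were found, and all 48 were among the 17063 genes that passed the filter on low counts and were tested. RNA was measured in LSK cells, which carry Sca1 and Kit and lack lineage antigens, a fraction in which haematopoietic stem cells and multipotent progenitors lie. The cells of all groups were taken 6 weeks after tamoxifen from mice of a primary transplant, with 2 libraries in each group. WT, HOXA9_KO, Bcat_KO (β-catenin, gene Ctnnb1, targeted) and dKO (β-catenin and Hoxa9 both targeted) were compared with one another. PRMT1_KO, in which the arginine methyltransferase Prmt1 was targeted, was compared with its own wild type, WT_PRMT1. Sample titles call the targeted groups KO, whereas the genotype field calls them knockdown. The sources used here do not give the strain, age, Cre driver or alleles. Nor do they say if both libraries of 1 group stem from different mice. The p-values therefore measure the spread between libraries, which may be technical.

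Type I interferons bind a receptor made of Ifnar1 and Ifnar2, whose kinases Jak1 and Tyk2 phosphorylate STAT proteins such as Stat2. The STATs join Irf9 and bind the interferon-stimulated response element (ISRE) in promoters of antiviral genes, among them Irf7, which in turn raises interferon transcription. Blood-forming stem cells are known to keep part of this programme at a basal level, and interferon alpha is known to drive resting stem cells into cycle.

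Levels are CPM, the counts of a gene scaled to a common library total, after scaling for library composition. Changes are log2 fold changes ± standard error (SE) from edgeR's quasi-likelihood test, and a gene is called when its p, adjusted over all 17063 genes by the Benjamini-Hochberg method, is under 0.05. A p in parentheses after a change is that adjusted p. A call is said to be lost where another setting put its adjusted p above 0.05, and that p follows after "at"; the settings were each library left out in turn and other choices of scaling, filter, tool and groups fitted. Libraries are named by their group and the S tag of their column.

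Total counts ran from 17569709 to 40553891 per library. Hoxa9 was at 8.36 to 12.2 CPM in HOXA9_KO and dKO and at 41.1 to 61.9 in the other groups, Ctnnb1 at 227 to 276 in Bcat_KO and dKO and at 314.8 to 384 elsewhere, and Prmt1 at 112 to 118 in PRMT1_KO and at 255 to 334 elsewhere. All WT and WT_PRMT1 libraries had high Xist (163 to 202 CPM) and low Ddx3y (0.792 to 2.87), while every knockout library had Ddx3y at 60.6 to 93.5 CPM, so genotype and sex-linked expression cannot be told apart in any knockout to wild-type comparison. Xist was at 11.2 to 21.9 CPM in Bcat_KO and at 0 to 0.758 in the other knockouts, so Bcat_KO differed from HOXA9_KO and dKO in this transcript too. No member lies on the X or Y chromosome. The Bcat_KO libraries stood apart: genes of olfactory and vomeronasal receptors summed to 11.2 to 15.2 CPM there and to 63.3 to 180.7 in the other libraries. The S4 tag stands on both a Bcat_KO and a HOXA9_KO column. Genes that mark stem and progenitor cells (8 markers, Kit and Ly6a among them) were present in every library, with sums of 1192 to 2115 CPM.

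Promoter sequence was read for the members first, because the ISRE is the letter pattern through which this pathway acts. RefSeq promoter windows on GRCm38.p6, from 250 bases before to 50 bases after each gene's start, were at hand for 38 of the 48 members. The ISRE core was searched as GAAANNGAA, or TTCNNTTTC on the other strand, and at least 1 match lay in the windows of 20 of those 38 members (52.6%). The same letters lay in 8.56% of all 32851 windows and in 8.96% of the 11771 tested genes with a window. The gamma-activated site TTCNNNGAA, which reads the same on both strands and can overlap the ISRE core, was found in 11 of 38 members (28.9%) and in 8.3% of all windows. The 150 bases before the RefSeq start are shown for Isg15, Ifit1, Rsad2 and Bst2, 4 members that were lower in Bcat_KO and carry the core there. Capitals mark every base that lies in a core match on either strand. The stretches lie at chr4:156200819-156200968, minus strand, chr19:34640739-34640888, plus strand, chr12:26456453-26456602, minus strand, and chr8:71537473-71537622, minus strand. Each is written 5′ to 3′ toward its gene. GENCODE, used below for gene coordinates, starts Ifit1 at 34640871, which lies inside its stretch.
Isg15: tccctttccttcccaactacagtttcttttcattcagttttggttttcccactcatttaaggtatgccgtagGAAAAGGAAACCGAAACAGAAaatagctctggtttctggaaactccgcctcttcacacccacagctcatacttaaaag
Ifit1: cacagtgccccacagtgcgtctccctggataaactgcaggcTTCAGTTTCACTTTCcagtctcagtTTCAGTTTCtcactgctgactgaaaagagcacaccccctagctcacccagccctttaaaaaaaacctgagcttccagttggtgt
Rsad2: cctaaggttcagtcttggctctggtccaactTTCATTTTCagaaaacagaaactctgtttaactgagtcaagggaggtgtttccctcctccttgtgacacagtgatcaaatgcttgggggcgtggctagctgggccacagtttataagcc
Bst2: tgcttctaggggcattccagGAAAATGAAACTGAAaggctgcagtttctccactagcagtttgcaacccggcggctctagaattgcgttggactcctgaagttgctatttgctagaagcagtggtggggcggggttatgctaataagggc
Isg15 and Ifit1 each held 3 matches, Bst2 held 2 and Rsad2 held 1; in Isg15, Ifit1 and Bst2 matches overlap, so that the capitals run together. The core lay in 7 of 13 (53.8%) of the members lower there and in 13 of 23 (56.5%) of those not called. A match is a description of letters and shows no binding.

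Compared per kilobase of exon, the members spanned a wide range of levels in WT LSK cells. Ifitm3 was highest, with a mean of 349 CPM per kb, followed by Ifitm1 (141), Ifitm2 (121), Bst2 (104), Ifi27 (95.1) and Lgals3bp (71.5). No member was at 0 in any library. The mean over members of log2(CPM + 0.5), a level, was 4.64 and 4.56 in the Bcat_KO libraries and 4.98 to 5.22 in the other 10. The median member was at 25.7 and 26.3 CPM in Bcat_KO, 28.2 and 29.4 in PRMT1_KO, and 32.01 to 36.6 in the remaining libraries.

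**Figure D1:**
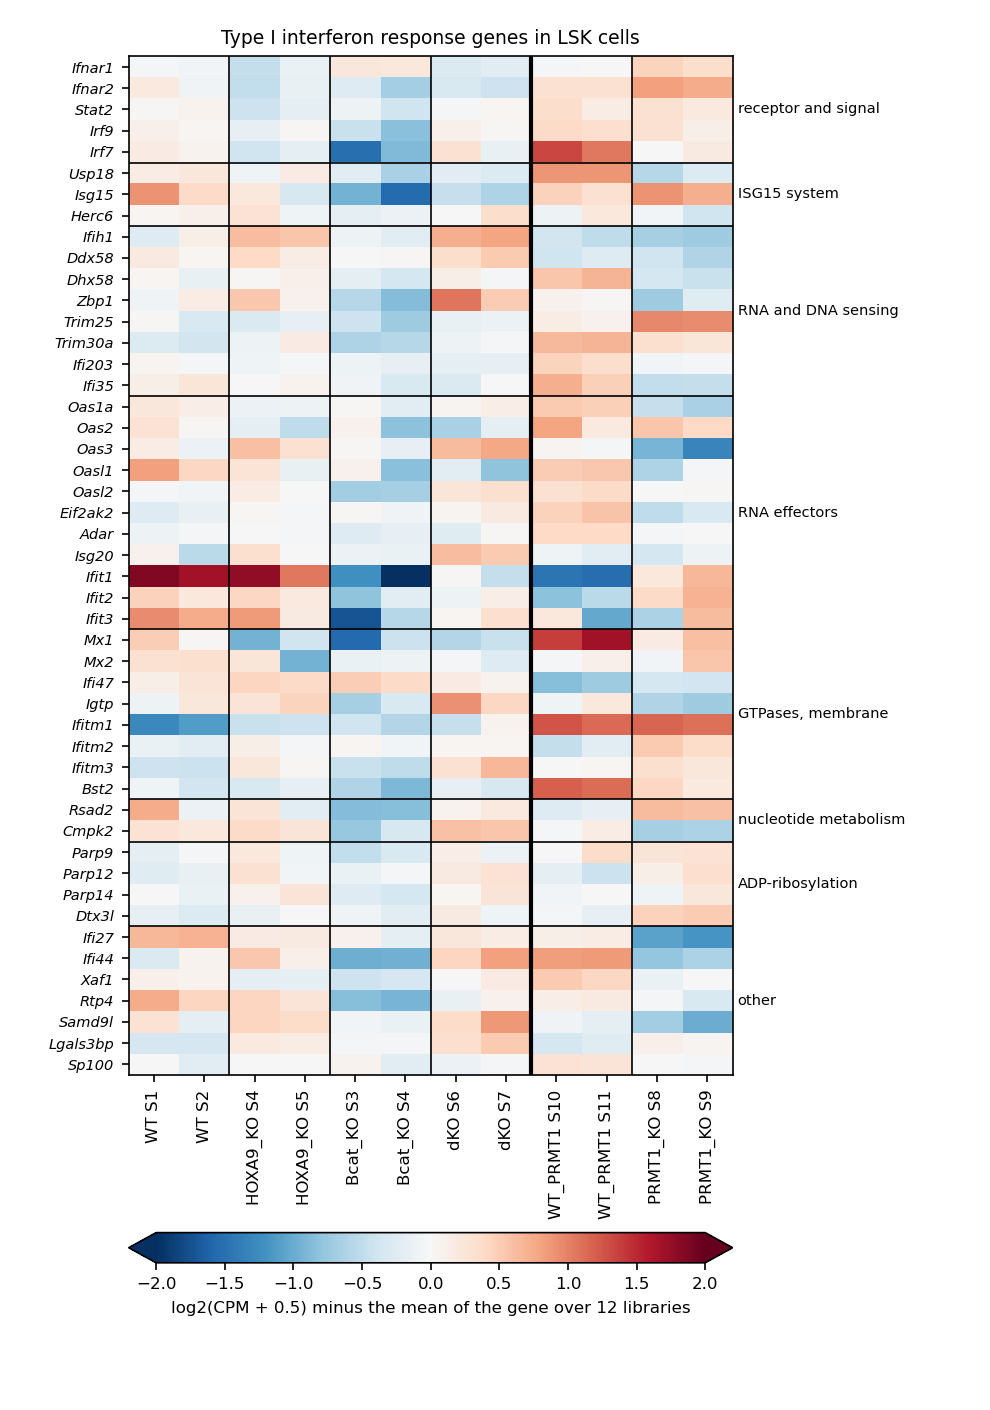
Level of each of the 48 members (rows, grouped by role) in each of the 12 libraries (columns, 2 per group), as log2(CPM + 0.5) minus the mean of that gene over the libraries; red is above and blue below that mean. Averaged over members, the Bcat_KO columns are lowest (4.64 and 4.56, against 4.98 to 5.22 in the others), Ifit1 is highest in WT and HOXA9_KO, and Ifitm1 is highest in WT_PRMT1 and PRMT1_KO.

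Targeting of β-catenin was accompanied by lower levels of many members. In Bcat_KO against WT, 16 of 48 members fell (33.3%, beside 9.76% of all genes tested) and 2 rose (4.17%, beside 7.48%). The members that fell were Isg15, Ifit1, Ifit2, Ifit3, Ifi44, Ifi27, Irf7, Irf9, Oasl2, Rsad2, Bst2, Rtp4, Trim25, Cmpk2, Zbp1 and Ifnar2, and those that rose were Ifitm1 and Lgals3bp. The median change of the members was -0.34, against -0.04 over all genes. Of the 48 members, 34 were lower and 7 higher in both Bcat_KO libraries than in both WT libraries. Of all 17063 genes, 5556 were lower and 4570 higher by the same measure. Without WT S1 the median change was -0.36 for the members and -0.04 over all genes, and smaller shares of both were called. Markers of other blood cells moved in the same libraries. Of 10 markers of plasmacytoid dendritic cells, which are strong interferon producers, 6 fell and 2 rose in Bcat_KO, with sums of 343 to 354 CPM against 488 to 571 in WT; Klk1 was at 0 in both groups and Ccr9 at 0 in Bcat_KO S3. Of 8 neutrophil markers 5 fell, with sums of 16.1 to 28.4 CPM against 417 to 1599, and Ltf, Retnlg and Mmp9 were at 0 in both Bcat_KO libraries. Of 11 erythroid markers 8 fell (29.4 to 40.7 CPM against 313 to 1258), of 9 B cell markers 6 fell although their sum was higher (6896 to 9892 CPM against 3020 to 6406), and of 11 T and NK cell markers 5 fell with sums of 134.7 to 137.5 CPM against 122 to 134.6. Among 11 monocyte markers 1 fell (9.09%, beside 9.76% of all genes) and none rose, with sums of 405.6 to 410.4 CPM against 485 to 654.6. Among 8 endothelial and stromal markers 1 rose and 1 fell. In bulk RNA, fewer cells of a type and less RNA per cell cannot be told apart, and the part of these cells in the members' values was not tested.

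Targeting of Hoxa9 was accompanied by few changes. In HOXA9_KO against WT 5 members rose (10.4%, beside 4.44% of all genes) and 1 fell (2.08%, beside 2.3%), with a median change of 0.05 against -0.00 over all genes. Ifitm3, Ifitm1, Lgals3bp, Ifih1 and Trim30a rose and Ifi27 fell. Without WT S1 the median change was 0.11 for the members and 0 over all genes, and smaller shares of both were called. No marker of plasmacytoid dendritic cells, monocytes, B cells, T and NK cells, neutrophils or erythroid cells was called, although erythroid sums were 172 to 272 CPM against 313 to 1258 in WT and the 2 HOXA9_KO libraries differed in neutrophil markers (69.9 and 1069 CPM). Of the 8 stem and progenitor markers 4 rose and 2 fell. The part of these cells was not tested.

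In dKO, in which both genes were targeted, members moved in both directions. Against WT 10 rose (20.8%, beside 9.15%) and 6 fell (12.5%, beside 8.52%), with a median of -0.00 against 0.01 over all genes. Those that rose were Ifitm1, Ifitm3, Lgals3bp, Ifih1, Oas3, Isg20, Ifi44, Igtp, Oasl2 and Zbp1, and those that fell were Isg15, Ifit1, Ifi27, Oasl1, Rtp4 and Ifnar2. Without WT S1 the median change of the members was 0.12, against 0.03 over all genes. Without WT S2, dKO S6 or dKO S7 it was 0.01 each time, against 0.01, -0.05 and -0.03. Smaller shares of the members and of all genes were called in each of these runs. Among the members that fell, only Isg15 and Ifi27 were called without each library in turn. Among those that rose, only Ifitm1, Ifitm3, Lgals3bp and Ifih1 were. Of the 10 plasmacytoid dendritic cell markers 4 fell (230.4 to 389.9 CPM in sum), and of 9 B cell markers 5 fell and 1 rose (12180 to 24420 CPM in sum, against 3020 to 6406 in WT); their part in these values was not tested.

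The knockouts were also compared with each other; all 6 libraries have high Ddx3y, but Xist was higher in Bcat_KO, as given above. Between dKO and HOXA9_KO edgeR called no member, beside 0.416% of all genes higher and 1.33% lower. An unadjusted p under 0.05 was found for 6 members and for 2120 of all 17063 genes. DESeq2 called 2 members higher and 1 lower, beside 1.7% and 2.99% of all genes. In limma-voom 1 member was called lower, beside 0.879%, and none higher, beside 0.293%. Between dKO and Bcat_KO 23 members were higher in dKO (47.9%, beside 16.2%) and 2, Ifnar1 and Ifi47, lower (4.17%, beside 12%), with a median difference of 0.45 against 0.06 over all genes. Between Bcat_KO and HOXA9_KO 19 members were lower in Bcat_KO (39.6%, beside 10.8%) and 1, Ifnar1, higher (2.08%, beside 6.52%). These comparisons share libraries with one another and with the comparisons against WT, so their counts are not independent. The dKO and HOXA9_KO libraries held more neutrophil marker RNA than Bcat_KO as well (1398 to 2178 and 69.9 to 1069 CPM against 16.1 to 28.4), and all 8 neutrophil markers were called higher in dKO than in Bcat_KO. So were 7 of 11 erythroid and 6 of 11 T and NK cell markers (1 lower), with 4 of 10 plasmacytoid dendritic markers higher and 2 lower. In Bcat_KO against HOXA9_KO 7 of 11 erythroid markers were lower, and of the plasmacytoid dendritic markers 6 were lower and 2 higher. The part of these cells in the members' values was not tested.

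Whether the dKO level equals the sum of the changes in the single knockouts was tested as a departure from additivity, the change in dKO minus the changes in HOXA9_KO and in Bcat_KO. It was called above 0 for 10 members (20.8%, beside 4.54% of all genes) and below 0 for 1 (2.08%, beside 3.9%). The 10 were Irf7, Irf9, Isg15, Zbp1, Oasl2, Rsad2, Cmpk2, Ifi27, Ifi44 and Rtp4, which stood higher in dKO than that sum, and the 1 was Ifi47. Without WT S1 the median departure was 0.39 for the members and 0.07 over all genes, and smaller shares of both were called. DESeq2 called 16 members above 0 and 1 below, beside 7.49% and 5.16% of all genes. Cell type markers were called above 0 as well. Shares above that of the members were found for 7 of 11 erythroid (63.6%), 5 of 11 T and NK cell (45.5%) and 3 of 8 neutrophil markers (37.5%). The same held for 3 of 10 plasmacytoid dendritic (30%, with 2 below 0) and 2 of 9 B cell markers (22.2%). Shares were smaller for 1 of 11 monocyte (9.09%), 1 of 8 endothelial and stromal (12.5%, 1 below 0) and 1 of 8 stem and progenitor markers (12.5%, 2 below 0). The summed levels of these lists were lowest in Bcat_KO for erythroid and neutrophil markers, and the part of these cells in the term was not tested. With library-size scaling 9 members were above and 1 below 0, while the split over all genes went to 3.66% above and 5.15% below.

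**Figure D2:**
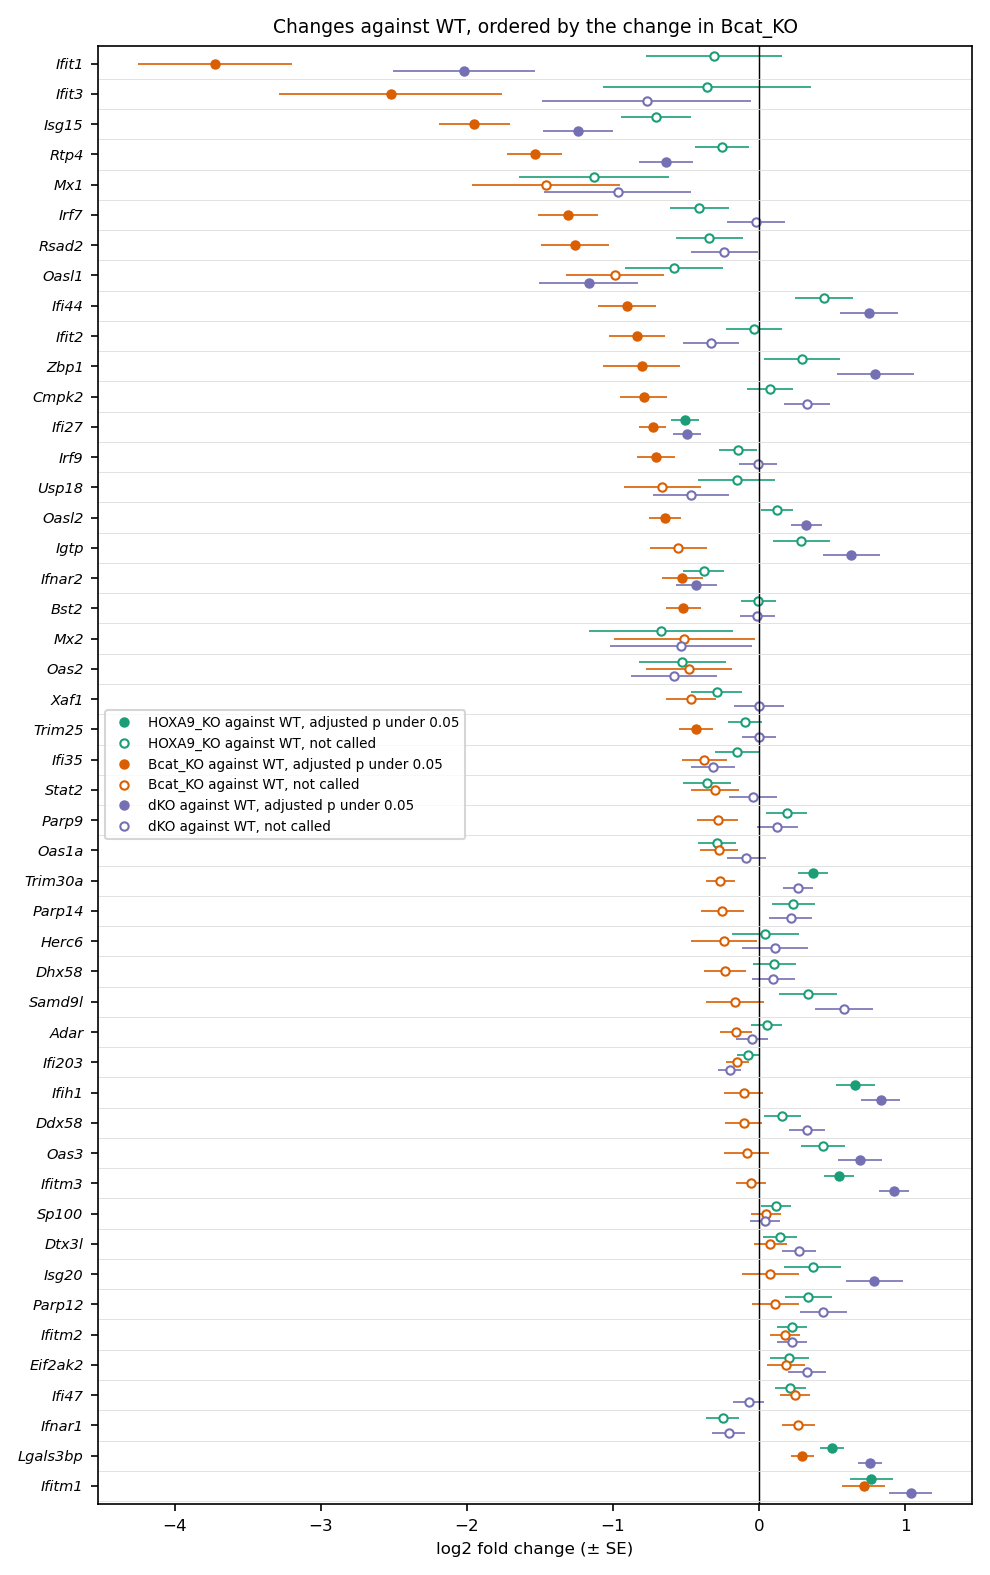
Log2 fold change of each of the 48 members in HOXA9_KO, Bcat_KO and dKO against WT (x axis, ± SE), ordered from the lowest to the highest value in Bcat_KO; filled points passed an adjusted p of 0.05. Orange points (Bcat_KO) lie left of 0 for most genes, while Ifi44, Zbp1 and Oasl2 lie left of 0 in Bcat_KO and right of 0 in dKO.

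With Prmt1 targeted, members moved in both directions. In PRMT1_KO against WT_PRMT1 19 fell (39.6%, beside 16% of all genes) and 11 rose (22.9%, beside 16.6%), with a median of -0.27 against -0.03 over all genes. Members that fell were Ifi27, Ifi44, Irf7, Oas1a, Oas3, Oasl2, Usp18, Bst2, Dhx58, Xaf1, Trim30a, Ifi35, Cmpk2, Eif2ak2, Adar, Samd9l, Sp100, Ifi203 and Igtp. Members that rose were Ifit1, Ifit2, Rsad2, Trim25, Parp12, Dtx3l, Lgals3bp, Ifitm2, Ifnar1, Ifnar2 and Ifi47. With library-size scaling the split was 22 lower and 6 higher, beside 21.1% and 12% of all genes. That scaling moves the median of all genes in this comparison from -0.03 to -0.17. Without WT_PRMT1 S10 or S11 the median change of the members was -0.25 and -0.27, against 0 over all genes. Without PRMT1_KO S8 or S9 it was -0.28 and -0.22, against -0.05 and -0.10. Smaller shares of the members and of all genes were called in each of these leave-out runs. Of the 16 members lower in Bcat_KO and the 19 lower in PRMT1_KO, 6 were on both lists, and 5 of those 16 were among the 11 that rose in PRMT1_KO; no test of these overlaps was made. Markers of plasmacytoid dendritic cells summed to 881 to 948 CPM in PRMT1_KO and 1980 to 2028 in WT_PRMT1, with 5 of 10 lower, none higher and none at 0. Monocyte markers summed to 1783 to 1894 CPM against 815 to 882 (2 of 11 higher, 1 lower), endothelial and stromal markers to 102 to 111.5 against 317 to 586 (1 of 8 higher, 3 lower), and erythroid markers to 64.5 to 66.8 against 599 to 670.0 (3 of 11 higher, 6 lower). Of 9 B cell markers 6 fell (4395 to 6595 CPM against 3990 to 3991), of 11 T and NK cell markers 2 rose and 3 fell, and no neutrophil marker was called (1762 to 2131 CPM against 627 to 687). The part of these cells in the members' values was not tested.

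The wild-type groups were not alike. In WT_PRMT1 against WT 12 members were higher (25%, beside 3.71% of all genes) and 5 lower (10.4%, beside 3.87%), although both are labelled wild type. The higher ones were Ifitm1, Bst2, Trim30a, Irf7, Ifi44, Eif2ak2, Dhx58, Oasl2, Ifi203, Adar, Ifitm3 and Sp100, and the lower ones Ifit1, Ifit2, Ifi47, Ifi27 and Ddx58. The median difference was 0.08 for the members and -0.01 over all genes. Without WT S1 or S2 it was 0.16 and 0.11 for the members, against 0 over all genes. Without WT_PRMT1 S10 or S11 it was 0.10 each time, against -0.03 and -0.04. Smaller shares of the members and of all genes were called in each of these leave-out runs. Plasmacytoid dendritic cell markers were 6 of 10 higher in WT_PRMT1 and none lower, and endothelial and stromal markers summed to 317 to 586 CPM there against 38.8 or less in WT; their part was not tested. Levels in the 2 experiments are therefore set side by side below, and changes in PRMT1_KO are given against WT_PRMT1.

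Receptor and signal members came first in the pathway. Ifnar1, the receptor chain that binds Tyk2, was at 60.04 and 59.6 CPM for WT, 72.6 and 71.5 for Bcat_KO, 44.01 and 56.5 for HOXA9_KO, 50.5 and 53.1 for dKO, 60.8 and 61.1 for WT_PRMT1 and 84.4 and 78.5 for PRMT1_KO. Its level in Bcat_KO was above every HOXA9_KO and dKO library and it rose by 0.42 ± 0.11 in PRMT1_KO (0.00771), a call lost without PRMT1_KO S8 at 0.0678, or with library-size scaling at 0.0663. Against Bcat_KO it was lower in dKO by 0.48 ± 0.11 (0.00432), while the change in Bcat_KO against WT was 0.27 ± 0.11 (0.105). Ifnar2, the chain that binds Jak1, was at 82.3 and 67.7 CPM for WT, 59.7 and 44.6 for Bcat_KO, 50.7 and 64.4 for HOXA9_KO, 57.6 and 53.8 for dKO, 88.3 and 88.2 for WT_PRMT1 and 127 and 119.7 for PRMT1_KO. In Bcat_KO it fell by 0.52 ± 0.14 (0.0207), in dKO by 0.43 ± 0.14 (0.0486), and it rose by 0.48 ± 0.14 in PRMT1_KO (0.0156). Each of the 3 calls depended on single libraries: the first was lost without WT S1 at 0.150 or Bcat_KO S4 at 0.145, or with the libraries of that experiment alone at 0.0561. The second was lost without WT S1 at 0.392, dKO S6 at 0.0712 or dKO S7 at 0.219, or under 4 other settings at 0.0507 to 0.0848. The third was lost without WT_PRMT1 S10 at 0.0682, WT_PRMT1 S11 at 0.0623 or PRMT1_KO S8 at 0.0886, or with library-size scaling at 0.0617.

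Stat2 was at 21.9 and 22.7 CPM for WT, 19.9 and 16.3 for Bcat_KO, 16.1 and 18.7 for HOXA9_KO, 21.2 and 22.1 for dKO, 27.5 and 24.003 for WT_PRMT1 and 26.7 and 24.6 for PRMT1_KO, a narrow band in which no comparison was called. Irf9, the DNA-binding partner of the STATs, was at 52.8 and 50.2 CPM for WT, 35.9 and 27.3 for Bcat_KO, 43.7 and 49.5 for HOXA9_KO, 52.8 and 49.7 for dKO, 64.1 and 61.9 for WT_PRMT1 and 60.6 and 53.4 for PRMT1_KO. Both Bcat_KO libraries lay below all 10 others. Irf9 fell by 0.71 ± 0.13 in Bcat_KO (0.00155) and was higher in dKO than in Bcat_KO by 0.70 ± 0.13 (0.000740). Irf7, the factor that amplifies interferon transcription (GRCm38 chromosome 7, 141262706 to 141266481, minus strand), was at 34.8 and 32.8 CPM for WT, 10.6 and 16.6 for Bcat_KO, 23.4 and 27.5 for HOXA9_KO, 38.6 and 28.01 for dKO, 79.5 and 65.3 for WT_PRMT1 and 31.4 and 35.1 for PRMT1_KO. Bcat_KO was again lowest, the range of dKO held that of WT, and the WT_PRMT1 libraries were above all others. Irf7 fell by 1.31 ± 0.20 in Bcat_KO (0.000824) and by 1.12 ± 0.20 in PRMT1_KO (0.000617), and dKO exceeded Bcat_KO by 1.29 ± 0.20 (0.000401). It was also higher in WT_PRMT1 than in WT by 1.10 ± 0.20 (0.00361), a call lost without WT S2 at 0.0522.

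The ISG15 system attaches a ubiquitin-like protein to other proteins. Isg15 itself (GRCm38 chromosome 4, 156199424 to 156200818, minus strand) was at 32.1 and 22.5 CPM for WT, 8.64 and 5.51 for Bcat_KO, 19.9 and 13.6 for HOXA9_KO, 12.2 and 10.9 for dKO, 23.7 and 21.3 for WT_PRMT1 and 32.2 and 28.5 for PRMT1_KO. The Bcat_KO libraries were lowest, the dKO libraries next, and those of dKO lay below both HOXA9_KO libraries. In Bcat_KO Isg15 fell by 1.95 ± 0.24 (7.51e-05), and in dKO it was lower than WT by 1.24 ± 0.24 (0.00148). Both calls held without each library in turn. The change in HOXA9_KO was -0.70 ± 0.24 (0.0925). dKO exceeded Bcat_KO by 0.71 ± 0.24 (0.0355), a call lost without Bcat_KO S4 at 0.233, dKO S6 at 0.143 or dKO S7 at 0.0666, or under 5 other settings at 0.0627 to 0.138. A second locus, AC151275.1, matches 63.8% of the longest Isg15 transcript at 95% identity or more, so reads could be split between them. Usp18, which removes ISG15 and also blocks the receptor, was at 7.74 and 8.14 CPM for WT, 5.81 and 4.24 for Bcat_KO, 6.44 and 7.82 for HOXA9_KO, 5.85 and 5.66 for dKO, 13.2 and 13.1 for WT_PRMT1 and 4.47 and 5.62 for PRMT1_KO. It fell by 1.38 ± 0.27 in PRMT1_KO (0.000628), while its change in Bcat_KO was -0.66 ± 0.26 (0.0921). Herc6, the ISG15 ligase, ranged over 9.10 to 15.7 CPM in the 12 libraries and was called in no comparison.

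Among the sensors of nucleic acid, Ifih1 (MDA5, a sensor of long double-stranded RNA) was higher in the groups with Hoxa9 targeted. It was at 31.8 and 41.6 CPM for WT, 35.8 and 32.6 for Bcat_KO, 59.4 and 56.8 for HOXA9_KO, 63.96 and 66.995 for dKO, 29.8 and 26.97 for WT_PRMT1 and 24.1 and 23.4 for PRMT1_KO. All 4 libraries of HOXA9_KO and dKO lay above the 8 others. Ifih1 rose by 0.66 ± 0.13 in HOXA9_KO (0.00478; 0.135 without WT S1) and by 0.83 ± 0.13 in dKO (0.000268). Zbp1, a sensor of Z-form nucleic acid that can start necroptosis, was at 9.68 and 11.4 CPM for WT, 6.73 and 5.37 for Bcat_KO, 15.1 and 10.9 for HOXA9_KO, 21.95 and 14.7 for dKO, 10.9 and 10.4 for WT_PRMT1 and 6.06 and 8.61 for PRMT1_KO. It was higher in dKO than in Bcat_KO by 1.60 ± 0.27 (0.000291), a call kept without each library in turn, whereas the fall of 0.80 ± 0.26 in Bcat_KO (0.0450) was lost without any 1 of the 4 libraries at 0.0506 to 0.214, or under 5 other settings at 0.0602 to 0.0818. Its rise of 0.80 ± 0.26 in dKO against WT (0.0439) was lost without WT S1 at 0.249, WT S2 at 0.0963 or dKO S6 at 0.406, or under 4 other settings at 0.0510 to 0.0683.

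Trim25, the ubiquitin ligase that activates RIG-I, was at 68.9 and 55.2 CPM for WT, 50.7 and 41.4 for Bcat_KO, 55.3 and 60.6 for HOXA9_KO, 61.5 and 62.4 for dKO, 75.8 and 71.9 for WT_PRMT1 and 133 and 131 for PRMT1_KO. Both PRMT1_KO libraries were above all 10 others, and Trim25 rose by 0.84 ± 0.12 there (2.64e-05). It fell by 0.43 ± 0.12 in Bcat_KO (0.0189), a call lost without WT S1 at 0.205 or Bcat_KO S4 at 0.158, or with the groups compared alone at 0.0691, or with the libraries of that experiment alone at 0.0596. Dhx58 (LGP2, a regulator of RIG-I-like receptors) was at 26.3 and 22.998 CPM for WT, 22.1 and 19.9 for Bcat_KO, 25.7 and 27.2 for HOXA9_KO, 27.6 and 25.1 for dKO, 37.5 and 41.1 for WT_PRMT1 and 19.7 and 18.5 for PRMT1_KO. It fell by 1.04 ± 0.15 in PRMT1_KO (2.93e-05). Ifi35 was at 30.4 and 33.4 CPM for WT, 26.6 and 22.6 for Bcat_KO, 27.8 and 29.6 for HOXA9_KO, 22.998 and 28.3 for dKO, 46.9 and 39.4 for WT_PRMT1 and 19.8 and 20.02 for PRMT1_KO. It fell by 1.12 ± 0.15 in PRMT1_KO (2.45e-05); 16.8% of its exon bases overlap a gene on the other strand. For both genes PRMT1_KO was below every other library. Trim30a was at 57.6 and 53.95 CPM for WT, 45.6 and 47.3 for Bcat_KO, 65.1 and 78.9 for HOXA9_KO, 65.5 and 68.6 for dKO, 109.5 and 113 for WT_PRMT1 and 87.5 and 83.3 for PRMT1_KO. It rose by 0.37 ± 0.10 in HOXA9_KO (0.0367), a call lost without WT S1 at 0.132, WT S2 at 0.250 or HOXA9_KO S5 at 0.378, or under 3 other settings at 0.0538 to 0.103, and fell by 0.38 ± 0.10 in PRMT1_KO (0.00743; lost without WT_PRMT1 S11 at 0.0735 or PRMT1_KO S9 at 0.0777). Ddx58 (RIG-I) ranged over 30.2 to 66.9 CPM and Ifi203 over 121 to 189.5 CPM; Ddx58 was not called in a knockout against its wild type, and Ifi203 fell by 0.45 ± 0.08 in PRMT1_KO (0.000231).

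Of the effectors that act on RNA, the Ifit genes, whose products bind viral RNA lacking host cap marks, differed most. Ifit1 (GRCm38 chromosome 19, 34640871 to 34650009, plus strand), singled out after its values were seen, was at 43.8 and 38.8 CPM for WT, 4.76 and 1.56 for Bcat_KO, 41.7 and 25.04 for HOXA9_KO, 12.002 and 8.35 for dKO, 3.96 and 3.78 for WT_PRMT1 and 13.7 and 18.9 for PRMT1_KO. Within the β-catenin and Hoxa9 experiment WT and HOXA9_KO were high, dKO lower and Bcat_KO lowest, with no overlap between these 3 steps. It fell by 3.72 ± 0.53 in Bcat_KO (0.00342) and held in every alternative, with adjusted p up to 0.0221 when 1 library was left out. The fall of 2.02 ± 0.49 in dKO (0.0260) was lost without any 1 of the 4 libraries at 0.0973 to 0.230, or with the libraries of that experiment alone at 0.0874. In PRMT1_KO Ifit1 rose by 2.08 ± 0.51 (0.0158), a call lost without WT_PRMT1 S10 at 0.120, WT_PRMT1 S11 at 0.133 or PRMT1_KO S9 at 0.101, and its wild type lay 3.42 ± 0.53 below WT (0.00732; lost without WT_PRMT1 S10 at 0.110 or WT_PRMT1 S11 at 0.121). Ifit2 was at 44.5 and 37.2 CPM for WT, 18.2 and 27.5 for Bcat_KO, 42.98 and 36.8 for HOXA9_KO, 29.9 and 35.1 for dKO, 17.9 and 21.9 for WT_PRMT1 and 41.9 and 52.4 for PRMT1_KO. It fell by 0.83 ± 0.19 in Bcat_KO (0.00846; lost without WT S1 at 0.0639 or Bcat_KO S3 at 0.0547) and rose by 1.24 ± 0.19 in PRMT1_KO (0.000128). Ifit3 was low, at 0.191 to 3.92 CPM, and shares 97.4% of its transcript with Ifit3b, so its fall in Bcat_KO (0.0335) is uncertain; it was lost without WT S1 at 0.117, WT S2 at 0.0897 or Bcat_KO S3 at 0.122, or under 3 other settings at 0.0536 to 0.0821.

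The 2′-5′ oligoadenylate synthetases make the messenger that activates RNase L, and they did not move as 1 group. Oas3 was at 41.6 and 34.4 CPM for WT, 38.2 and 33.5 for Bcat_KO, 57.01 and 46.1 for HOXA9_KO, 58.3 and 64.2 for dKO, 38.7 and 36.8 for WT_PRMT1 and 19.4 and 14.7 for PRMT1_KO. It rose by 0.69 ± 0.15 in dKO (0.00379; lost without WT S2 at 0.0591) and fell by 1.15 ± 0.16 in PRMT1_KO (2.04e-05), where both libraries were below all others. Oas1a was at 38.3 and 35.7 CPM for WT, 33.1 and 28.1 for Bcat_KO, 30.3 and 30.4 for HOXA9_KO, 33.95 and 35.8 for dKO, 46.97 and 45.6 for WT_PRMT1 and 23.6 and 20.6 for PRMT1_KO. It fell by 1.07 ± 0.13 in PRMT1_KO (8.59e-06); its whole transcript matches Oas1g at 95% identity or more (100%), so its counts may be shared. Oasl2, a synthetase-like protein, was at 44.98 and 43.7 CPM for WT, 27.95 and 28.7 for Bcat_KO, 50.7 and 45.9 for HOXA9_KO, 54.1 and 56.9 for dKO, 56.4 and 59.9 for WT_PRMT1 and 45.4 and 46.4 for PRMT1_KO. The Bcat_KO libraries were below all others, and dKO was above WT. Oasl2 fell by 0.65 ± 0.11 in Bcat_KO (0.000737) and was higher in dKO than in Bcat_KO by 0.97 ± 0.11 (8.49e-06), both kept in every alternative. Its rise of 0.32 ± 0.11 in dKO against WT (0.0467) was lost without any 1 of the 4 libraries at 0.106 to 0.281, or under 6 other settings at 0.0529 to 0.113. Its fall of 0.34 ± 0.11 in PRMT1_KO (0.0215) was lost without any 1 of the 4 libraries at 0.0683 to 0.210, or without a filter at 0.0902. Oasl1 ranged over 4.57 to 15.6 CPM and was called in dKO, where it fell by 1.17 ± 0.34 (0.0237; lost without WT S1 at 0.178 or dKO S7 at 0.201, or without robust estimation at 0.0504); Oas2, at 7.07 to 22.4 CPM, was called in no comparison.

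Isg20, an exonuclease that degrades single-stranded RNA, was at 23.2 and 14.9 CPM for WT, 20.2 and 20.01 for Bcat_KO, 27.4 and 21.7 for HOXA9_KO, 34.03 and 31.8 for dKO, 20.6 and 18.7 for WT_PRMT1 and 17.03 and 20.4 for PRMT1_KO. It rose by 0.79 ± 0.20 in dKO (0.00902; lost without WT S2 at 0.150). The dKO libraries were above all others. Eif2ak2 (PKR, the kinase that halts translation on double-stranded RNA) was at 27.3 and 29.5 CPM for WT, 33.4 and 31.2 for Bcat_KO, 33.4 and 32.2 for HOXA9_KO, 34.03 and 37.4 for dKO, 45.3 and 48.8 for WT_PRMT1 and 22.8 and 26.5 for PRMT1_KO. It fell by 0.93 ± 0.13 in PRMT1_KO (3.19e-05). Adar, the editor that marks cellular double-stranded RNA as self, ranged over 45.5 to 72.5 CPM and fell by 0.42 ± 0.11 there (0.00608; lost without WT_PRMT1 S11 at 0.0521 or PRMT1_KO S8 at 0.0539); 16.8% of its exon bases overlap Chrnb2 on the other strand.

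The membrane proteins that hold viruses at the cell surface or in endosomes included members that rose. Ifitm3 (GRCm38 chromosome 7, 141009586 to 141010770, minus strand) was at 237 and 236 CPM for WT, 232 and 222 for Bcat_KO, 372 and 320.4 for HOXA9_KO, 392 and 504 for dKO, 314 and 325 for WT_PRMT1 and 394 and 371 for PRMT1_KO. HOXA9_KO and dKO lay above WT and Bcat_KO without overlap. It rose by 0.55 ± 0.10 in HOXA9_KO (0.00261) and by 0.92 ± 0.10 in dKO (9.21e-06), with -0.06 ± 0.10 in Bcat_KO (0.756), and both calls held without each library in turn. Ifitm1 (140967221 to 140969825 on the same chromosome, plus strand) was at 144 and 164 CPM for WT, 271 and 236 for Bcat_KO, 259 and 265 for HOXA9_KO, 259 and 374 for dKO, 853 and 781 for WT_PRMT1 and 793 and 761 for PRMT1_KO. All knockouts of the β-catenin and Hoxa9 experiment were above WT, and the 4 libraries of the Prmt1 experiment were far above those. Ifitm1 rose by 0.77 ± 0.15 in HOXA9_KO (0.0121; lost without WT S1 at 0.114, HOXA9_KO S4 at 0.137 or HOXA9_KO S5 at 0.104), by 0.72 ± 0.15 in Bcat_KO (0.0100; lost without WT S1 at 0.0870 or Bcat_KO S3 at 0.0581) and by 1.04 ± 0.15 in dKO (0.000857). The difference between the wild types, 2.41 ± 0.15 higher in WT_PRMT1 (9.21e-06), was larger than any of these. Another locus, Gm7676, matches 36.2% of its transcript. Ifitm2 was at 81.5 and 76.4 CPM for WT, 92.3 and 86.3 for Bcat_KO, 97.4 and 87.2 for HOXA9_KO, 92.5 and 92.2 for dKO, 64.5 and 77.6 for WT_PRMT1 and 129 and 115 for PRMT1_KO. It rose by 0.78 ± 0.10 in PRMT1_KO (1.60e-05); 40.9% of its exon bases overlap Gm45717 on the same strand and 66.0% of its transcript matches Gm11951, so its level is uncertain.

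Bst2 (tetherin, which ties budding virions to the membrane) was at 104 and 84.8 CPM for WT, 72.7 and 58.9 for Bcat_KO, 89.2 and 98.6 for HOXA9_KO, 98.3 and 88.8 for dKO, 254 and 241 for WT_PRMT1 and 148 and 126 for PRMT1_KO. The WT_PRMT1 libraries were highest, and Bcat_KO lay below every other library. Bst2 fell by 0.52 ± 0.12 in Bcat_KO (0.00826; lost without WT S1 at 0.0879 or Bcat_KO S4 at 0.0731) and by 0.85 ± 0.12 in PRMT1_KO (3.94e-05), and was higher in WT_PRMT1 than in WT by 1.39 ± 0.12 (2.67e-06). The guanosine triphosphatases behaved differently from one another. Igtp (Irgm3, which acts on vacuoles that hold pathogens) was at 21.7 and 27.2 CPM for WT, 14.4 and 18.8 for Bcat_KO, 27.8 and 31.9 for HOXA9_KO, 44.5 and 31.2 for dKO, 21.96 and 27.01 for WT_PRMT1 and 15.2 and 13.96 for PRMT1_KO. It was higher in dKO than in Bcat_KO by 1.19 ± 0.20 (0.000291) and fell by 0.75 ± 0.20 in PRMT1_KO (0.00710; lost without WT_PRMT1 S11 at 0.102 or PRMT1_KO S9 at 0.0644). Its rise of 0.63 ± 0.20 in dKO against WT (0.0324) was lost without WT S1 at 0.270 or dKO S6 at 0.374, or under 3 other settings at 0.0610 to 0.0779. Ifi47 was at 56.6 and 62.3 CPM for WT, 73.2 and 67.8 for Bcat_KO, 70.01 and 67.98 for HOXA9_KO, 58.5 and 54.7 for dKO, 28.8 and 31.8 for WT_PRMT1 and 40.7 and 39.8 for PRMT1_KO, lower in the WT_PRMT1 and PRMT1_KO libraries of the second experiment than in all 8 of the first. It rose by 0.41 ± 0.11 in PRMT1_KO (0.00613; lost without WT_PRMT1 S10 at 0.0808, or with library-size scaling at 0.0698), and its fall of 0.32 ± 0.10 in dKO against Bcat_KO (0.0314) was lost without any 1 of the 4 libraries at 0.0617 to 0.222, or under 3 other settings at 0.0583 to 0.141. Mx1 (0.508 to 8.99 CPM) and Mx2 (1.08 to 4.01 CPM) were called in no comparison; the Mx2 transcript shares 34.0% with Mx1.

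Rsad2 (viperin) and Cmpk2 are neighbours on chromosome 12 that act on nucleotides, viperin by making a chain terminator and Cmpk2 by supplying its substrate. Rsad2 (26442746 to 26456452, minus strand) was at 49.5 and 27.3 CPM for WT, 15.9 and 16.1 for Bcat_KO, 35.5 and 25.2 for HOXA9_KO, 31.2 and 33.9 for dKO, 24.6 and 26.3 for WT_PRMT1 and 46.1 and 44.4 for PRMT1_KO. Cmpk2 was at 30.3 and 28.6 CPM for WT, 14.4 and 19.7 for Bcat_KO, 32.3 and 29.7 for HOXA9_KO, 37.5 and 36.5 for dKO, 24.2 and 27.6 for WT_PRMT1 and 15.4 and 15.8 for PRMT1_KO. Both were lowest in Bcat_KO within their experiment. Rsad2 fell by 1.26 ± 0.23 (0.00324) and Cmpk2 fell by 0.79 ± 0.16 (0.00321) in Bcat_KO, and dKO exceeded Bcat_KO by 1.02 ± 0.23 (0.00566; lost without dKO S7 at 0.0525) and 1.12 ± 0.16 (8.22e-05). In PRMT1_KO they parted: Rsad2 rose by 0.83 ± 0.23 (0.0139; lost without any 1 of the 4 libraries at 0.0567 to 0.108) and Cmpk2 fell by 0.73 ± 0.16 (0.00189).

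The ADP-ribosylation members, which modify proteins with ADP-ribose and work in part with the ubiquitin ligase Dtx3l, were called in few comparisons. Parp9, Parp14, Parp12 and Dtx3l had changes against WT of -0.28 to 0.11 in Bcat_KO, 0.14 to 0.34 in HOXA9_KO and 0.13 to 0.44 in dKO, with none called. In PRMT1_KO Dtx3l went from 52.2 and 48.2 to 74.7 and 76.7 CPM (0.59 ± 0.12 higher, 0.000674) and Parp12 from 22.8 and 19.2 to 28.2 and 33.1 (0.55 ± 0.16 higher, 0.0140; lost without WT_PRMT1 S11 at 0.142 or PRMT1_KO S9 at 0.156, or with library-size scaling at 0.0797). Parp9 (at 47.4 and 52.2 CPM for WT, 38.1 and 43.8 for Bcat_KO, 62.7 and 50.8 for HOXA9_KO, 59.2 and 49.5 for dKO, 53.4 and 69.7 for WT_PRMT1 and 64.4 and 65.8 for PRMT1_KO) was higher in dKO than in Bcat_KO by 0.41 ± 0.14 (0.0386), and Parp14 by 0.47 ± 0.15 (0.0244). The first call was lost without Bcat_KO S3 at 0.165 or dKO S6 at 0.276, or under 5 other settings at 0.0647 to 0.135, and the other without Bcat_KO S4 at 0.0945 or dKO S7 at 0.187, or under 3 other settings at 0.0524 to 0.0874. Parp9 and Dtx3l overlap on opposite strands over 9.4% and 8.0% of their exon bases, and the strand setting of the counting was not among the facts given in these sources.

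The remaining members included a gene that fell in every knockout. Ifi27, a small mitochondrial and nuclear membrane protein (GRCm38 chromosome 12, 103434211 to 103440239, plus strand), was at 138 and 141 CPM for WT, 91.9 and 76.5 for Bcat_KO, 97.7 and 98.8 for HOXA9_KO, 102 and 96.5 for dKO, 93.9 and 96.6 for WT_PRMT1 and 40.9 and 37.95 for PRMT1_KO. Every knockout library lay below both libraries of its wild type. Ifi27 fell by 0.50 ± 0.10 in HOXA9_KO (0.00285), by 0.73 ± 0.10 in Bcat_KO (9.32e-05), by 0.49 ± 0.10 in dKO (0.00132) and by 1.27 ± 0.10 in PRMT1_KO (3.74e-08), and all 4 calls held in every alternative. Lgals3bp, a secreted glycoprotein that binds galectins, went the other way, at 203 CPM for both WT libraries, 248 and 251 for Bcat_KO, 292 and 283 for HOXA9_KO, 322 and 367 for dKO, 199.6 and 217 for WT_PRMT1 and 275 and 265 for PRMT1_KO. It rose by 0.50 ± 0.08 in HOXA9_KO (0.000741), by 0.30 ± 0.08 in Bcat_KO (0.0184; lost without any 1 of the 4 libraries at 0.0844 to 0.142), by 0.76 ± 0.08 in dKO (4.72e-06) and by 0.37 ± 0.08 in PRMT1_KO (0.00145; lost with library-size scaling at 0.0557). These 2 were the members called in all 4 knockout comparisons, 3 of which share the WT libraries.

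Rtp4, a chaperone of membrane receptors, was at 26.9 and 21.7 CPM for WT, 8.58 and 8.15 for Bcat_KO, 21.5 and 19.2 for HOXA9_KO, 14.4 and 16.9 for dKO, 17.4 and 18.2 for WT_PRMT1 and 15.7 and 12.8 for PRMT1_KO. Bcat_KO was below all others and dKO below HOXA9_KO and WT. In Bcat_KO it fell by 1.54 ± 0.19 (5.81e-05), and in dKO by 0.64 ± 0.19 (0.0245; lost without WT S1 at 0.283 or dKO S6 at 0.155); 13.9% of its exon bases overlap Gm45338 on the same strand. Ifi44 was at 14.3 and 18.5 CPM for WT, 8.70 and 8.86 for Bcat_KO, 25.8 and 18.97 for HOXA9_KO, 23.8 and 31.5 for dKO, 32.03 and 32.1 for WT_PRMT1 and 10.2 and 11.2 for PRMT1_KO. It fell by 0.90 ± 0.20 in Bcat_KO (0.00546; lost without WT S2 at 0.0740), rose by 0.75 ± 0.20 in dKO (0.0122; lost without WT S1 at 0.151 or dKO S7 at 0.197) and fell by 1.58 ± 0.20 in PRMT1_KO (1.02e-05), and dKO exceeded Bcat_KO by 1.66 ± 0.20 (1.66e-05). Samd9l (10.2 to 38.3 CPM over all libraries), Xaf1 (12.1 to 23.7 CPM) and Sp100 (77.8 to 112 CPM) were each called lower in PRMT1_KO, with changes of -0.74 ± 0.20, -0.55 ± 0.17 and -0.28 ± 0.10. The call of Samd9l was lost without WT_PRMT1 S10 at 0.0581 or PRMT1_KO S9 at 0.113. That of Xaf1 was lost without any 1 of the 4 libraries at 0.0713 to 0.175, or without a filter at 0.0717. That of Sp100 was lost without any 1 of the 4 libraries at 0.136 to 0.190, or without a filter at 0.0875, or without robust estimation at 0.0581.

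**Figure D3:**
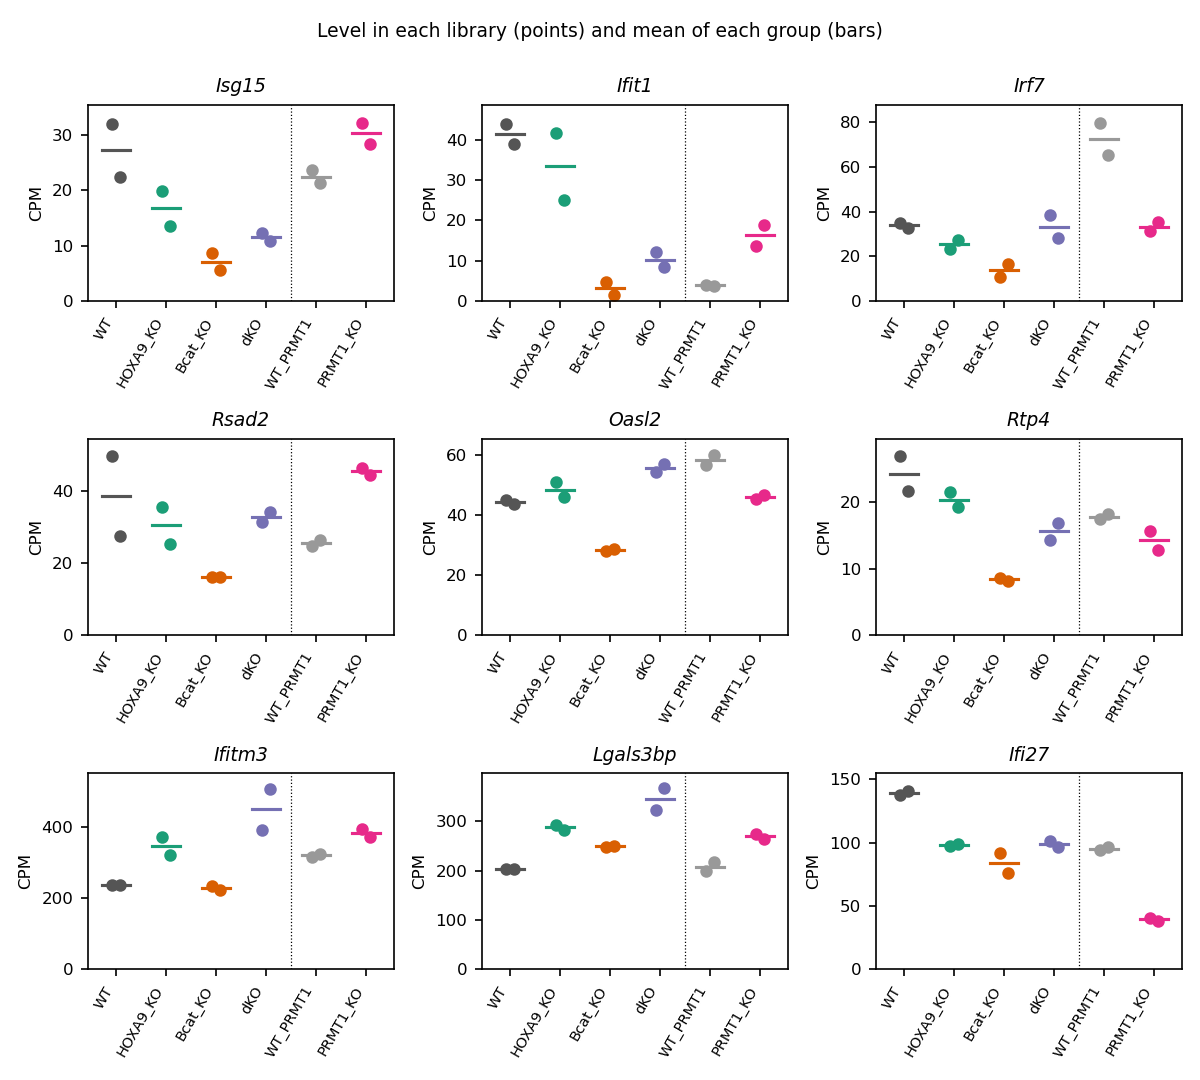
CPM of 9 members (y axis, from 0) in each library (points) by group (x axis), with the group mean as a bar; the dotted line parts the 2 experiments. Isg15, Ifit1, Irf7, Rsad2, Oasl2 and Rtp4 are lowest in Bcat_KO within the first experiment, Ifitm3 and Lgals3bp rise in HOXA9_KO and dKO, and Ifi27 is below its wild type in every knockout.

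**Figure D4:**
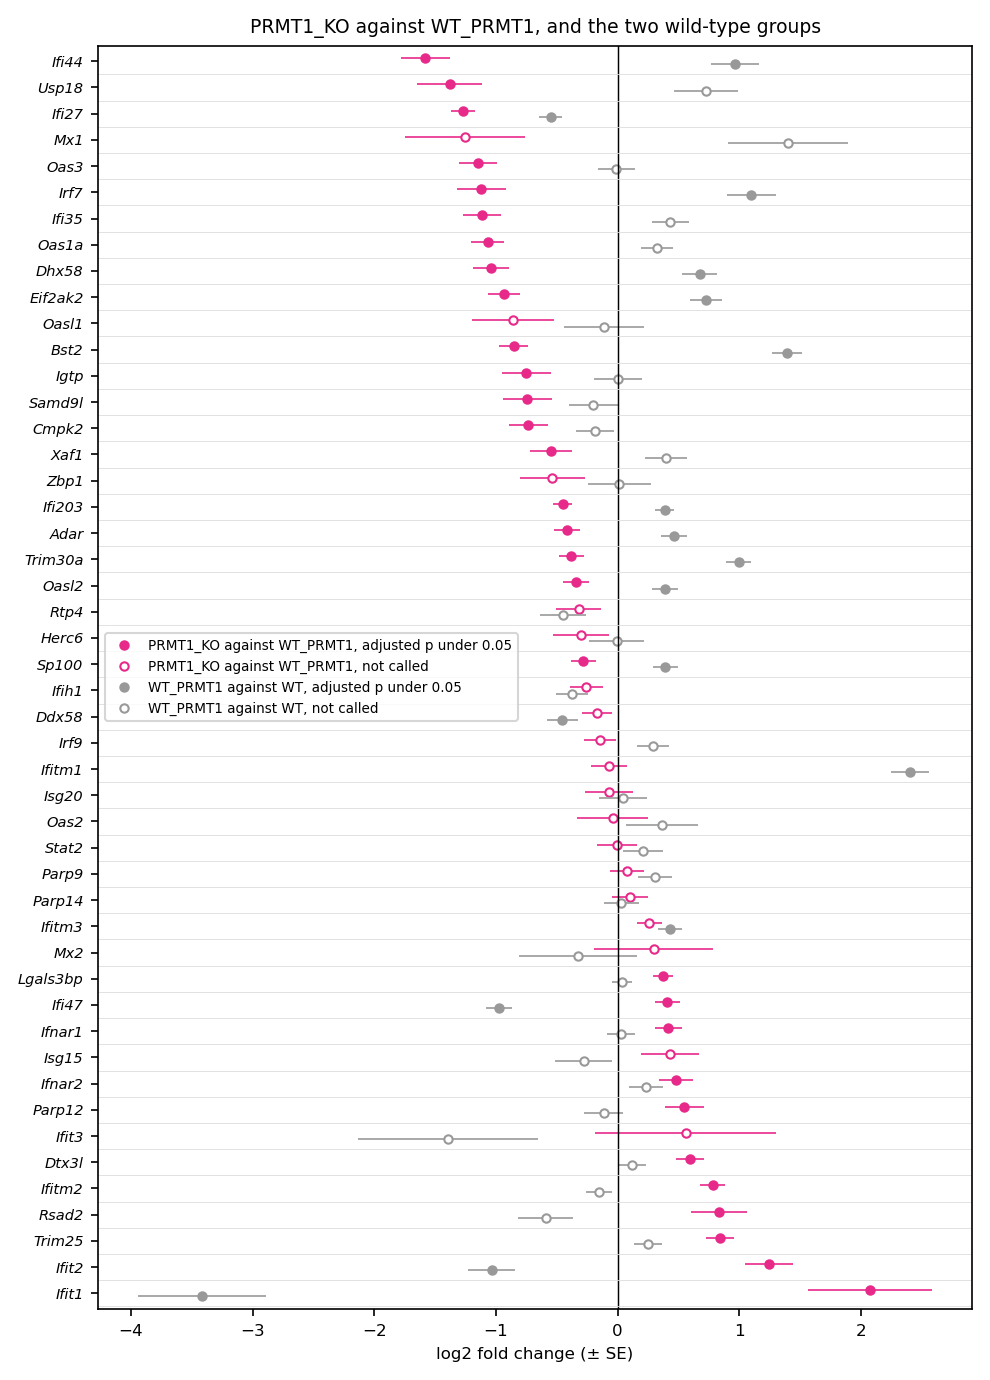
Log2 fold change (x axis, ± SE) of the 48 members in PRMT1_KO against WT_PRMT1 (pink), ordered from lowest to highest, and of WT_PRMT1 against WT (grey); filled points passed an adjusted p of 0.05, and both comparisons share the WT_PRMT1 libraries. Pink points reach from -1.58 for Ifi44 to 2.08 for Ifit1, and grey points from -3.42 for Ifit1 to 2.41 for Ifitm1.

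Other genes of the pathway were counted from 5 lists. On the list of signal and feedback genes, the kinase Jak1 rose by 0.31 ± 0.09 in HOXA9_KO (0.0424), by 0.37 ± 0.09 in dKO (0.00539) and by 0.46 ± 0.09 in PRMT1_KO (0.000499), whereas Tyk2 and Irf1 were not called in a knockout against its wild type. Of the 30 genes of that list, 4 rose (13.3%, beside 7.48% of all genes) and 3 fell (10%, beside 9.76%) in Bcat_KO, and 5 rose (16.7%, beside 4.44%) and none fell (beside 2.3%) in HOXA9_KO. In dKO 8 rose (26.7%, beside 9.15%) and 1 fell (3.33%, beside 8.52%), and in PRMT1_KO 9 rose (30%, beside 16.6%) and 4 fell (13.3%, beside 16%). In PRMT1_KO Stat3, the main target of interleukin 6 signals, rose by 1.85 ± 0.11 (2.10e-09) and the phosphatase Ptpn1 rose by 0.94 ± 0.12 (6.65e-06). Among 27 tested genes of nucleic acid sensing, 3 rose (11.1%, beside 7.48%) and 4 fell (14.8%, beside 9.76%) in Bcat_KO, and 2 rose (7.41%, beside 4.44%) and 2 fell (7.41%, beside 2.3%) in HOXA9_KO. In dKO 5 rose (18.5%, beside 9.15%) and 2 fell (7.41%, beside 8.52%), and in PRMT1_KO 9 rose (33.3%, beside 16.6%) and 5 fell (18.5%, beside 16%). The nuclease Samhd1 rose by 0.48 ± 0.10 in HOXA9_KO (0.00762) and by 0.74 ± 0.10 in dKO (8.32e-05), and the adaptor Myd88 rose by 1.07 ± 0.11 in PRMT1_KO (8.31e-07).

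Interferon-stimulated genes outside the 48 were counted in the same way. Of 64 tested, 20 fell (31.2%, beside 9.76% of all genes) and 1 rose (1.56%, beside 7.48%) in Bcat_KO, and 19 fell (29.7%, beside 16%) and 10 rose (15.6%, beside 16.6%) in PRMT1_KO, with medians of -0.37 and -0.24. In HOXA9_KO 3 fell (4.69%, beside 2.3%) and 2 rose (3.12%, beside 4.44%), and in dKO 5 fell (7.81%, beside 8.52%) and 7 rose (10.9%, beside 9.15%), with medians of 0.03 and 0.05; the shares in dKO are near those of all genes. Shisa5 fell by 0.83 ± 0.07 in Bcat_KO (1.91e-06) and Mndal fell by 1.25 ± 0.09 in PRMT1_KO (1.81e-08). Ly6a, which encodes the Sca1 antigen that defines LSK cells and is also on the stem cell marker list, was at 93.2 and 103 CPM for WT, 73.7 and 74.3 for Bcat_KO, 135 and 154 for HOXA9_KO, 199 and 155 for dKO, 99.6 and 86.9 for WT_PRMT1 and 298 and 270.3 for PRMT1_KO, where it rose by 1.61 ± 0.12 (2.59e-08). Of 20 tested targets of interferon gamma, none rose (beside 7.48% of all genes) and 9 fell (45%, beside 9.76%) in Bcat_KO, and 1 rose (5%, beside 4.44%) and none fell (beside 2.3%) in HOXA9_KO. In dKO 3 rose (15%, beside 9.15%) and 1 fell (5%, beside 8.52%), and in PRMT1_KO 6 rose (30%, beside 16.6%) and 6 fell (30%, beside 16%). Gbp2 fell by 0.64 ± 0.12 in Bcat_KO (0.00165) and rose by 0.80 ± 0.12 in dKO (0.000135), while the receptor chain Ifngr1 rose by 1.76 ± 0.11 in PRMT1_KO (3.61e-09). Interferon transcripts were scarce: of 21 genes 3 passed the filter, and their sum over the list was 0 to 7.29 CPM per library. Ifnb1 was at 3.14 and 1.39 CPM for WT, 0 for both Bcat_KO libraries, 1.09 and 2.33 for HOXA9_KO, 0.852 and 0.304 for dKO, 1.13 and 0.0899 for WT_PRMT1 and 5.88 and 5.71 for PRMT1_KO, and Ifna2 and Ifng at 1.39 CPM or lower in every library. A count of 0 allows up to 0.0952 CPM in Bcat_KO S3 and 0.0707 in Bcat_KO S4, from 3 independent counts and counting error only. Most nonzero counts were even, as when both mates of a pair are counted, and these limits would then be higher. All 3 were called lower in Bcat_KO than in WT (0.00159, 0.0148 and 0.00271 for Ifnb1, Ifna2 and Ifng), and Ifnb1 was called higher in PRMT1_KO (0.0115). The calls in Bcat_KO rest on 14 to 60 counts of each gene per WT library, and on fewer read pairs if both mates were counted. Genes of olfactory and vomeronasal receptors were low there too, with sums of 11.2 to 15.2 CPM against 136.6 to 180.7 in WT. Whether the fall is particular to interferon genes was not tested.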

How the data were processed

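RNA from LSK cells was extracted with the RNeasy Plus Micro kit and made into libraries with the NEB Ultra II Directional kit, per the labels' protocols. The deposited table holds counts of reads per gene. Trim Galore 0.6.6, STAR 2.7.6a, featureCounts and GRCm38 (mm10) are named in the submitters' processing notes; the sources used here give no strand setting or annotation release. Of nonzero counts 67.1% to 75.9% were even, as when both mates of a pair are counted.

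Of 55471 identifiers 55230 matched GENCODE M21, which gave symbols; the other 241 held 0.0044% of counts. Columns were mapped to groups by name. Counts were fitted with edgeR 4.0.16 in R 4.3.3 (quasi-likelihood, robust estimation, TMM scaling, filterByExpr with a minimum count of 10), over all 12 libraries and 6 groups, leaving 6 residual degrees of freedom, for 9 comparisons. P-values were adjusted by the Benjamini-Hochberg method over all genes tested, with a threshold of 0.05. CPM values are TMM-scaled. Alternatives used DESeq2 1.42.0, limma-voom (limma 3.58.1), other scalings, filters and groups fitted, and each library left out in turn. Sequence identity was searched with blastn 2.17.0; promoters came from RefSeq. The procedure was tested on simulated data.

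The members and gene lists were chosen with earlier results of these data known. Ifnar1, Ifnar2, Stat2, Irf9 and Irf7 are always described, with up to 8 called members of smallest p in each of 4 knockout to wild-type comparisons; the others were added to complete role groups or chosen after their values were seen. Depth limits precision. Floors cover counting error only, whereas the SEs come from the edgeR fit and include the spread between libraries.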

Additional observations from a re-analysis of the deposited data

Results flagged for a closer look

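For 11 members the change in dKO differed from the sum of the changes in HOXA9_KO and Bcat_KO, by the interaction term of the edgeR model (dKO minus HOXA9_KO minus Bcat_KO plus WT, log2, with the adjusted p in parentheses). The departure was 0.85 for Oasl2 (0.00311), 0.74 for Ifi27 (0.00327), 1.70 for Irf7 (0.00331), 1.04 for Cmpk2 (0.00927) and 0.84 for Irf9 (0.00986), and these 5 were called without each of the 8 libraries in turn. It was 1.15 for Rtp4 (0.0136), lost without WT S1 at 0.0725, and 1.21 for Ifi44 (0.0136), lost without WT S2 at 0.0597. For Isg15 it was 1.42 (0.0171), lost without WT S1 at 0.0737, in limma-voom at 0.0555 and with the groups compared alone at 0.0513. For Rsad2 it was 1.36 (0.0236), lost without WT S1, either Bcat_KO library or either dKO library at 0.0532 to 0.0839. For Zbp1 it was 1.31 (0.0375), lost without WT S1, WT S2, HOXA9_KO S5, Bcat_KO S4 or dKO S6 at 0.0565 to 0.160. Ifi47 was the member below 0, at -0.53 (0.0347), lost without any 1 of the 8 libraries at 0.0518 to 0.206. All 11 terms use the Bcat_KO libraries, which stood apart in other genes as well; their part in these values was not tested.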

How the results depend on the processing

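No paired analysis was possible because the columns carry S tags and no replicate numbers that groups share. No called member changed direction under any alternative run. Of 143 member calls, 142 were kept with RLE size factors, 126 with library-size scaling, 136 without a filter, 143 in DESeq2, 129 in limma-voom, 130 without robust estimation and 122 with the groups compared alone; leaving out each library in turn kept 442 of 616. Where a library was left out, the lone library of its group was assumed to vary like the other groups. Counts of calls in such runs rest on that assumption. The members' median change was then -0.43 to -0.30 in Bcat_KO against WT, beside -0.11 to -0.04 over all genes. It was 0.38 to 0.53 in dKO against Bcat_KO, beside 0.01 to 0.15. In Bcat_KO against HOXA9_KO it was -0.47 to -0.31, beside -0.12 to -0.02. The median departure from additivity was 0.36 to 0.59, beside 0.04 to 0.15. A smaller share of all genes was called in these runs than in the main fit, except for dKO against HOXA9_KO without dKO S6. The number of members called then ran from 3 to 6 for HOXA9_KO, 10 to 15 for Bcat_KO and 9 to 11 for dKO against WT (lowest without WT S1 in all 3), from 0 to 3 for dKO against HOXA9_KO, from 20 to 23 for PRMT1_KO against WT_PRMT1, from 6 to 13 for the departure from additivity and from 9 to 13 for WT_PRMT1 against WT. For dKO against HOXA9_KO, where edgeR called 0, 2 were called without a filter, 3 in DESeq2, 1 in limma-voom and 1 without the Bcat_KO libraries; DESeq2 called 17 departures. Leaving out the Bcat_KO libraries and robust estimation were alternatives chosen after seeing the data. With library-size scaling the calls over all genes in PRMT1_KO went from 16.6% higher and 16% lower to 12% and 21.1%. The cause of these differences was not tested. With 2 libraries a group, depth of 17569709 to 40553891 counts limits the low members, such as Ifit3 and Mx2, most.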
